A study of Haberlea rhodopensis with 10 samples.

Results

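Polyphenol oxidase transcripts were followed through drying and rewatering in leaves of Haberlea rhodopensis, a resurrection plant that survives the loss of nearly all its water. The members were the unigenes, or assembled transcripts, whose best Swiss-Prot hit was named polyphenol oxidase or catechol oxidase and whose FPKM (fragments scaled by unigene length and library total) was at least 1 in at least 2 libraries. Of 142473 unigenes 11 carried such a name, all as polyphenol oxidase, and 8 passed the FPKM filter, among 85267 unigenes tested in all. All 11 were assigned to the KEGG orthologue K00422.

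Polyphenol oxidases are copper enzymes that oxidise ortho-diphenols, such as caffeic acid esters, to quinones, and the quinones then polymerise to the brown pigments of cut or bruised plant tissue. Most known plant forms carry a transit peptide and reside in the thylakoid lumen of the chloroplast, whereas their phenolic substrates are stored in the vacuole, so that enzyme and substrate meet when membranes break. Aureusidin synthase of snapdragon, a member of the same enzyme family, works in the vacuole and makes yellow aurone pigments.

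Mature leaves were sampled for RNA sequencing at 5 stages, each with 2 libraries. F was the untreated, fully hydrated control (relative water content of about 100% in the sample labels, 90% in the protocol), D75 was slightly dehydrated (75%), D20 was extensively dehydrated (20%), DT was fully dried (below 5% in the labels, 6% in the protocol), and R was rehydrated after full drying (about 100% in the labels, 90% in the protocol). All plants came from in vitro propagation and grew in pots for about a year, and stages were recognised by chlorophyll fluorescence. At least 4 plants served each sampling point, but how they were divided over the 2 libraries was not stated, so p-values measure the spread between these libraries, which may be technical.

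The libraries held 4522835 to 12734565 fragments on unigenes, with F replicate 2 the shallowest. Reads of D75 and D20 had another raw length than those of F, DT and R, so read length and stage cannot be told apart in D75 against F, D20 against F and DT against D20; the other comparisons stay within a read length. Markers of leaf mesophyll (small subunit of Rubisco, chlorophyll a-b binding proteins, carbonic anhydrases; 74 tested unigenes) were abundant in fresh leaves, with a summed level of 33140 to 35030 scaled FPKM in F and 32970 to 36950 in R. They summed to 16090 to 27240 at D75, 753 to 1123 at D20 and 3508 to 3825 at DT, and 53 of the 74 fell and 4 rose from F to D20, where 17.8% of all tested unigenes fell and 14.0% rose at an adjusted p below 0.05 (edgeR). Levels here are FPKM rescaled by the TMM (trimmed mean of M-values) factors of the libraries. In such bulk leaf samples fewer cells of a type and less RNA per cell cannot be told apart.

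Markers of other leaf tissues and of roots were read against the same shares of all tested unigenes, 17.8% lower and 14.0% higher. From F to D20, 7 of 8 guard cell unigenes fell and 1 rose, and 5 of 9 vascular unigenes fell. Of 111 unigenes of epidermis and trichomes 47 fell and 6 rose, and 6 of 6 unigenes of the root list fell. The guard cell sum was 16.5 to 18.4 in F, 7.73 to 12.3 in D75, 3.10 to 4.12 in D20, 1.74 to 1.86 in DT and 11.6 to 22.7 in R, and 2 of its 8 unigenes were at 0 at D20. The vascular sum was 25.4 to 45.3 in F, 5.06 to 5.82 in D75, 3.61 to 4.30 in D20, 2.39 to 3.09 in DT and 15.8 to 64.8 in R, with 2 of 9 unigenes at 0 at D75 and as many at D20. The sum of epidermis and trichome markers was 2070 to 3071 in F, 1195 to 1385 in D75, 659 to 1086 in D20, 682 to 2693 in DT and 4486 to 5618 in R, and 24 of 111 unigenes were at 0 at D20. Casparian strip proteins, listed as root markers, had a sum of 32.8 to 70.0 in F, 14.8 to 20.6 in D75 and 1.97 to 4.14 in D20. Their sum was 4.02 to 4.52 at DT and 60.2 to 116.8 in R, with 3 of 6 unigenes at 0 in both libraries of D20 and 4 of 6 at DT. This list had been set to lie near 0 in leaves, but in F and R its sum was above that of guard cells. Whether the samples held root tissue was not tested. The part of these shifts in the polyphenol oxidase results was not tested.

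The 8 polyphenol oxidase unigenes belonged to 3 assembly clusters, groups of contigs that share sequence and among which reads can be divided wrongly, so that the split between contigs of 1 cluster is uncertain. Cluster CL6698 held 4 members (Contig2 to Contig5, 1999 to 2134 nt), with best Swiss-Prot hits to polyphenol oxidase of grapevine (Contig3 and Contig4) or to polyphenol oxidase II of sweet potato (Contig2 and Contig5). CL16777.Contig2 (1906 nt) also matched the sweet potato enzyme. The 3 members of cluster CL1839 (2072 to 2298 nt) matched the apple enzyme in Swiss-Prot, but their best hit in the Nr protein database was an aureusidin synthase-like protein of sesame. Of these, Contig1 and Contig2 had Swiss-Prot alignment scores of 738 and 739, and Contig3 had 387.

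**Figure D1:**
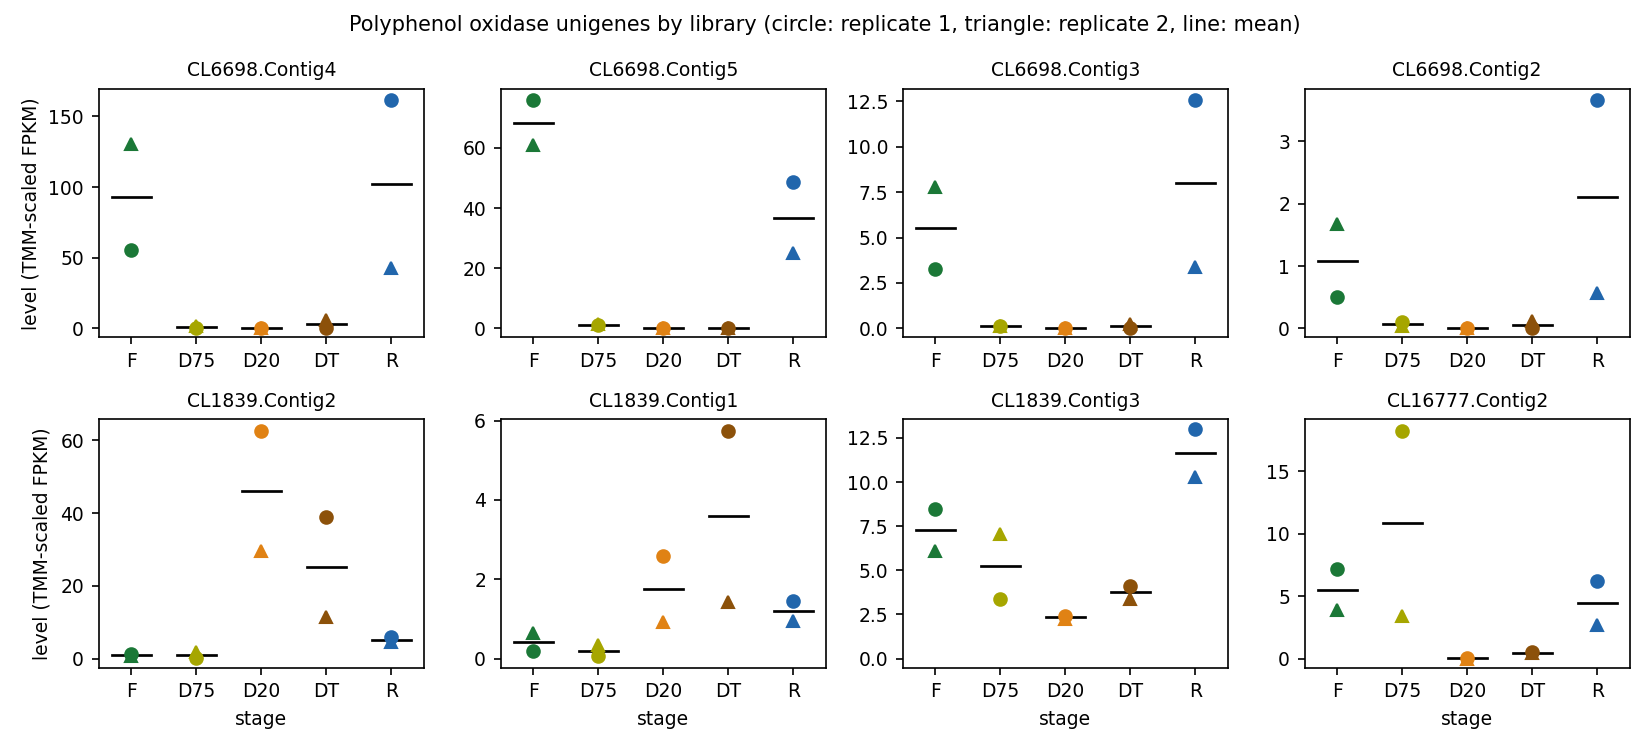
Level of each of the 8 polyphenol oxidase unigenes in the 10 libraries (vertical axis, TMM-scaled FPKM, own range per panel) over the 5 stages (horizontal axis); circles are replicate 1, triangles replicate 2 and lines the mean of both. In each CL6698 contig every F and R library lay above every library of D75, D20 and DT, whereas CL1839.Contig2 was at 29.54 to 62.64 at D20 and at 0.80 to 1.35 in F. CL6698.Contig2 and Contig3 passed the FPKM filter through F and R libraries alone, so their separation was partly set by it.

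In fresh leaves the polyphenol oxidase transcripts came almost entirely from CL6698, and 3 of its 4 contigs were already lower at D75. CL6698.Contig5 was at 75.8 and 60.9 scaled FPKM in the F libraries, 0.994 and 1.55 in D75, 0 and 0 in D20, 0 and 0 in DT, and 48.5 and 25.0 in R. No stage overlapped with the next in the order F, R, D75, and both dry stages were at 0. CL6698.Contig5 reached an FPKM of 1 in F, D75 and R libraries alone, so its tests of D20 and DT against those stages are descriptions. Its mean level in F, 68.4 ± 10.5 (SD, n = 2), lay at percentile 98.7 of all tested unigenes in F.

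By edgeR's quasi-likelihood test with Benjamini-Hochberg adjustment over all tested unigenes, CL6698.Contig5 fell 53.6-fold from F to D75 (log2 change -5.75, SE 0.54, adjusted p = 0.00502). It was at least 477-fold lower at D20 than in F (adjusted p = 2.69e-05) and at least 417-fold lower at DT (adjusted p = 7.07e-05), taking a count of 0 as up to 3 fragments per library, or 0.143 scaled FPKM at D20 and 0.164 at DT. In R it was at least 224-fold higher than at DT (adjusted p = 0.00016), and R against F gave a log2 change of -0.90 (SE 0.44, adjusted p = 0.594). These calls held in all 16 alternative fits, apart from D75 against F in a fit of those 4 libraries alone (adjusted p = 0.072, range over the alternatives 2.66e-23 to 0.072). Among 13657 tested unigenes with a mean level of at least 5 in F, 380 (2.78%) had 0 fragments in all 4 D20 and DT libraries, as CL6698.Contig5 did.

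CL6698.Contig4 was the other abundant form, with 55.5 and 130.4 scaled FPKM in F, 0.445 and 1.66 in D75, 0.0504 and 0.155 in D20, 0.0599 and 5.90 in DT, and 161.4 and 42.7 in R. The F and R libraries overlapped, and all were far above every library of the 3 dehydrated stages. The DT libraries stood apart from each other, with 1 fragment in replicate 1 and 104 in replicate 2.

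CL6698.Contig4 fell 88.8-fold from F to D75 (log2 change -6.47, SE 1.35, adjusted p = 0.0361) and 855-fold from F to D20 (log2 change -9.74, SE 1.66, adjusted p = 0.00106), where 4 fragments remained in both libraries together. From F to DT it fell 31.0-fold (log2 change -4.95, SE 1.25, adjusted p = 0.0143) and from DT to R it rose by 5.09 on the log2 scale (SE 1.26, adjusted p = 0.0182). The sizes rested on single libraries. The log2 change at D75 was -5.73 without F replicate 2, -5.81 without D75 replicate 1 and -7.68 without D75 replicate 2, and that at D20 was -9.02 without F replicate 2 and -10.67 without D20 replicate 2. At DT, where replicate 2 held 104 of 105 fragments, the log2 change was -10.45 without DT replicate 2, -3.98 without DT replicate 1 and -4.21 without F replicate 2. For R against DT, dropping DT replicate 2 gave 10.59 and dropping DT replicate 1 gave 4.11, while R replicate 1 or 2 dropped gave 3.83 or 5.79.

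The D75 call of CL6698.Contig4 was lost without F replicate 1 (adjusted p = 0.0634), F replicate 2 (0.243), D20 replicate 1 (0.0656) or 2 (0.0662), R replicate 1 (0.0518) or 2 (0.0519), with limma (0.0515) and in a fit of the 4 libraries compared (0.072), within a range of 6.27e-07 to 0.243 over its alternatives. The DT call was lost without F replicate 2 (adjusted p = 0.0761, range 5.13e-12 to 0.0761), and the R against DT call without DT replicate 1 (0.0543) or R replicate 1 (0.121, range 2.74e-06 to 0.121). The D20 call held in all 16 alternatives at an adjusted p below 0.05, but missed an adjusted p of at most 0.001. CL6698.Contig4 reached an FPKM of 1 in 0 libraries of D20, so its tests against that stage are descriptions.

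The 2 minor contigs of the cluster were also highest in F and R, at lower levels. CL6698.Contig3 was at 3.27 and 7.77 scaled FPKM in F, 0.135 and 0.122 in D75, 0 and 0 in D20, 0 and 0.223 in DT, and 12.6 and 3.41 in R. CL6698.Contig2 was at 0.498 and 1.68 in F, 0.102 and 0.0413 in D75, 0 and 0 in D20, 0 and 0.113 in DT, and 3.66 and 0.566 in R. In both contigs every F and R library lay above every library of the dehydrated stages, and F and R overlapped. Both passed the FPKM filter through F and R libraries alone, so this separation was partly set by the filter. The tests of these 2 contigs between hydrated and dehydrated stages are therefore descriptions.

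CL6698.Contig3 fell from F to D75 (log2 change -5.35, SE 0.93, adjusted p = 0.0214), was at least 36.7-fold lower at D20 than in F (adjusted p = 0.000589), fell from F to DT (log2 change -5.52, SE 0.99, adjusted p = 0.00271) and rose from DT to R by 6.05 on the log2 scale (SE 0.99, adjusted p = 0.00269). Of these, D75 was lost without F replicate 2 (log2 change -4.60, adjusted p = 0.192, range 2.42e-06 to 0.192) and in a fit of the 4 libraries compared (0.0761), and without F replicate 2 the bound at D20 was 21.8-fold. All 4 fragments of CL6698.Contig3 at DT were in replicate 2. DT against F was -4.58 without DT replicate 1 and -4.77 without F replicate 2, and R against DT was 5.12 with DT replicate 1 dropped, and 4.83 or 6.74 with R replicate 1 or 2 dropped. Without DT replicate 2 no fragment remained at DT, and the fitted changes, -9.76 and 10.30, are no bounds.

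CL6698.Contig2 was at least 7.15-fold lower at D20 than in F (adjusted p = 0.0101). It entered the test through 1 library of F and 1 of R alone, so its comparisons with dry leaves are descriptions. It had 2 fragments at DT against 31 in F, a ratio of scaled counts of 17.1 (exact 95% interval for counting error 4.36 to 147.6, adjusted p = 0.0441), and 71 in R against those 2, a ratio of 35.6 (9.50 to 299.6, adjusted p = 0.022). These values of CL6698.Contig2 rested on single libraries, and the bound at D20 was 3.26-fold without F replicate 2 and 11.02-fold without F replicate 1. The fitted log2 change from F to DT was -4.80 without F replicate 1, -2.97 without F replicate 2, -3.17 without DT replicate 1 and -7.39 without DT replicate 2, which held both DT fragments. From DT to R it was 4.14 or 8.36 with DT replicate 1 or 2 dropped, and 3.16 or 5.87 with R replicate 1 or 2 dropped. At D20 the call was lost without F replicate 2 (0.064), D20 replicate 1 (0.0627) or D20 replicate 2 (0.0588), at DT without F replicate 2 (0.242), either D20 replicate (0.0501), DT replicate 1 (0.213) or DT replicate 2 (0.0909) and with limma (0.0543), and in R against DT without DT replicate 1 (0.144), DT replicate 2 (0.0806) or R replicate 1 (0.256) and with limma (0.0541). The adjusted p over the alternatives of Contig2 ranged from 0.000132 to 0.064, from 0.000295 to 0.242 and from 0.00038 to 0.256, in that order.

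The 3 named unigenes that did not pass the filter were CL6698.Contig6, with 10 and 33 fragments in F, 0 and 1 in D75, 0 at D20 and DT, and 17 and 4 in R, and the 232 nt fragments CL6698.Contig1 and CL16777.Contig1, with 0 to 3 fragments in any library. They were not tested.

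CL16777.Contig2 was lower at D20 and DT than in F, but was not called at D75. It was at 7.21 and 3.86 scaled FPKM in F, 18.2 and 3.43 in D75, 0.0529 and 0 in D20, 0.503 and 0.476 in DT, and 6.19 and 2.68 in R. The D75 libraries stood apart from each other and enclosed the F libraries, while D20 and DT lay below all the rest. CL16777.Contig2 reached an FPKM of 1 in F, D75 and R libraries alone, so its tests of D20 and DT against those stages are descriptions.

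From F to D75 the log2 change of CL16777.Contig2 was 0.96 (SE 0.68, adjusted p = 0.511), and without D75 replicate 2 it was 1.71 with an adjusted p of 0.0203, the lowest in a range up to 0.864. At D20 a single fragment remained, against 172 in F (ratio of scaled counts 217, exact 95% counting interval 38.5 to 8628, adjusted p = 0.000585) and 587 at D75 (ratio 432, 77.2 to 17070, adjusted p = 0.000503), and both calls held in all 16 alternatives. That fragment was in D20 replicate 1, and the fitted log2 changes were -6.54 against F and -7.51 against D75 without D20 replicate 2, and -6.72 and -9.08 against D75 without D75 replicate 1 and 2. Without D20 replicate 1 no fragment remained, and the fitted changes, -9.67 and -10.63, are no bounds. From F to DT it fell 11.2-fold (log2 change -3.49, SE 0.81, adjusted p = 0.00925), and from DT to R it rose by 3.16 on the log2 scale (SE 0.80, adjusted p = 0.0207). The DT call was lost without F replicate 1 (adjusted p = 0.0538) or DT replicate 1 (0.0764) or 2 (0.0805, range 1.33e-08 to 0.0805), and that of R against DT without DT replicate 1 (0.127) or 2 (0.14) or R replicate 1 (log2 change 2.44, adjusted p = 0.157, range 0.000178 to 0.157).

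Cluster CL1839, with its aureusidin synthase-like hit, held the unigenes that rose on drying. CL1839.Contig2 was at 1.35 and 0.801 scaled FPKM in F, 0.328 and 1.80 in D75, 62.6 and 29.5 in D20, 38.9 and 11.5 in DT, and 5.86 and 4.54 in R. All 4 libraries of D20 and DT were above all others, the R libraries were above both F libraries, and F and D75 overlapped. Between F and D20 it moved from percentile 41.4 to percentile 97.0 of the tested unigenes of those stages.

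CL1839.Contig2 rose 42.2-fold from F to D20 (log2 change 5.40, SE 0.84, adjusted p = 0.000623), 23.0-fold from F to DT (log2 change 4.53, SE 0.82, adjusted p = 0.00233) and by 5.45 on the log2 scale from D75 to D20 (SE 0.84, adjusted p = 0.000961). These 3 calls held in all 16 alternatives at an adjusted p below 0.05, but their sizes moved with single libraries. The call at DT missed an adjusted p of at most 0.001. The log2 change from F to DT was 3.39 without DT replicate 1 and 5.16 without DT replicate 2, that from F to D20 was 4.76 without D20 replicate 1, and that from D75 to D20 was 4.61 without D75 replicate 1, 7.11 without D75 replicate 2 and 4.80 without D20 replicate 1. From F to D75 its log2 change was -0.05 (SE 0.77, adjusted p = 0.996). From DT to R the log2 change was -2.27 (SE 0.72, adjusted p = 0.0517), and from F to R it was 2.25 (SE 0.76, adjusted p = 0.442). R against DT passed the threshold with DESeq2 (adjusted p = 0.0217), without the FPKM filter (0.00464) and in a fit of the 4 libraries compared (0.00606). R against F passed it without the FPKM filter (0.0497) and in such a fit (0.00692). Both passed the threshold without D75 replicate 1 or 2, with adjusted p of 0.00257 and 0.00208 for R against DT (range 0.00208 to 0.398) and of 0.0405 and 0.0348 for R against F (range 0.00692 to 1.0).

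CL1839.Contig1 was at 0.207 and 0.643 scaled FPKM in F, 0.0638 and 0.347 in D75, 2.58 and 0.914 in D20, 5.75 and 1.43 in DT, and 1.46 and 0.952 in R. The D20 and DT libraries lay above F and D75 but overlapped with R. In FPKM as deposited, D20 replicate 2 (0.695) lay below F replicate 2 (0.927), so the separation of D20 from F depended on the scaling. CL1839.Contig1 reached an FPKM of 1 in libraries of D20, DT and R alone. The filter thus favoured a difference from F and D75, so the tests of this unigene against them are descriptions. It rose from F to DT (log2 change 3.11, SE 0.89, adjusted p = 0.0256) and from D75 to D20 (log2 change 3.10, SE 0.91, adjusted p = 0.0264), and D20 against F gave 2.08 (SE 0.89, adjusted p = 0.0913). The DT call was lost without F replicate 1 (adjusted p = 0.188), F replicate 2 (0.071) or DT replicate 1 (0.26) and with limma (0.0928), in a range of 2.69e-06 to 0.26, and its log2 change was 2.38, 4.09 and 1.79 without those libraries, and 3.79 without DT replicate 2. That of D20 against D75 was lost without D75 replicate 1 (log2 change 2.25, adjusted p = 0.0711) or D20 replicate 1 (2.16, adjusted p = 0.207), with limma (0.104) and in a fit of the 4 libraries compared (0.112, range 0.0023 to 0.207), and the log2 change was 4.65 without D75 replicate 2. In contrast, D20 against F passed without the FPKM filter (adjusted p = 0.0398) and in a fit of the 4 libraries compared (0.02). Its log2 change was 2.04 or 2.11 without D75 replicate 1 or 2. It was 1.15 without D20 replicate 1 and 3.03 without F replicate 2.

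CL1839.Contig3 ran against the other contigs of its cluster. It was at 8.46 and 6.07 scaled FPKM in F, 3.37 and 7.08 in D75, 2.43 and 2.24 in D20, 4.10 and 3.39 in DT, and 13.0 and 10.3 in R. R lay above F, D20 lay below DT, and both dry stages lay below F and R.

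CL1839.Contig3 fell from F to D20 (log2 change -1.64, SE 0.44, adjusted p = 0.0136) and rose from DT to R by 1.63 (SE 0.43, adjusted p = 0.0242), while DT against F gave -0.96 (SE 0.43, adjusted p = 0.125). The fall was lost without F replicate 1 (adjusted p = 0.0661), D20 replicate 1 (0.0814) or D20 replicate 2 (0.0946, range 0.000615 to 0.0946). The rise was lost without DT replicate 1 (0.102) or 2 (0.158) or R replicate 1 (0.161) or 2 (0.0652, range 0.00114 to 0.161). By edgeR, D20 against D75 gave a log2 change of -1.16 (adjusted p = 0.0676). With limma, DT against F (adjusted p = 0.0204) and D20 against D75 (0.0162) passed. With each library left out in turn, the edgeR log2 change was -1.17 to -0.78 in DT against F. In D20 against D75 it was -1.66 to -0.53.

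Within CL1839 the make-up of the cluster differed between stages. Per length, CL1839.Contig3 held 84.4% and 80.8% of the cluster level in F and 89.6% and 76.7% at D75, but 3.59% and 6.85% at D20. CL1839.Contig2 held 13.5% and 10.7% in F, 92.6% and 90.4% in D20, 79.8% and 70.4% at DT and 28.9% and 28.8% in R. The shares in R thus lay between those of the hydrated and the dry leaves, in both libraries. As counts, Contig2 took 28 of 190 fragments of the cluster in F replicate 1 (14.7%, exact 95% interval 10.0% to 20.6%) and 1429 of 1534 in D20 replicate 1 (93.2%, 91.8% to 94.4%), intervals that cover counting error only.

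**Figure D2:**
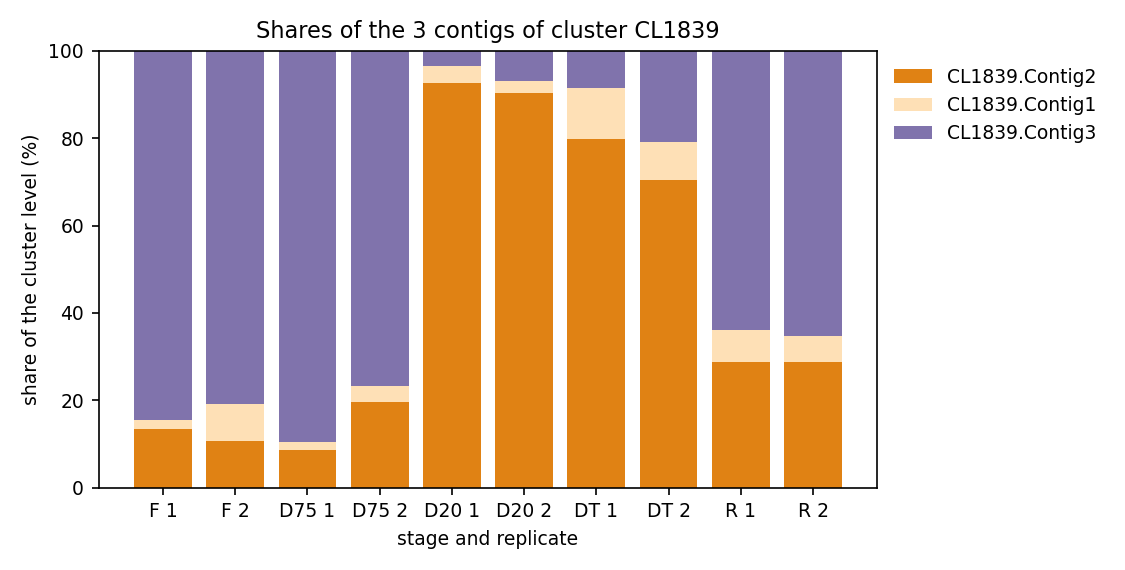
Share of the summed per-length level of cluster CL1839 (vertical axis, %) held by each of its 3 contigs in the 10 libraries (horizontal axis, stage and replicate). CL1839.Contig2 held 8.71% to 19.5% in F and D75, 70.4% to 92.6% at D20 and DT, and 28.8% to 28.9% in R.

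In D75 against F, 3 of the 8 members (CL6698.Contig3, Contig4 and Contig5) were lower and 0 higher at an adjusted p below 0.05. Of all tested unigenes 1.83% were called (1.16% lower, 0.671% higher). These 3 members share an assembly cluster, and of 3 cluster sums 1 was called. A fit of the 4 libraries compared called 0 members. Read length and stage cannot be told apart in this comparison. By edgeR 4 members had an unadjusted p below 0.05, all of CL6698, and DESeq2 called 3 and limma 2. At D20 against F, 6 members were lower and 1 higher (31.8% of all tested unigenes called, 17.8% lower and 14.0% higher), and at DT against F 5 were lower and 2 higher (22.5% called, 12.4% lower and 10.1% higher). CL6698.Contig2 to Contig5 and CL16777.Contig2 were lower in both. Some members entered the test only through stages where they were high. CL6698.Contig2 and Contig3 reached an FPKM of 1 in F and R libraries alone (2 and 4 libraries), and CL1839.Contig1 reached it in 3 libraries of D20 and DT and 1 of R. CL16777.Contig2 and CL6698.Contig5 reached it in F, D75 and R libraries, and in 0 libraries of D20 and DT. For such members the filter itself favoured a difference between stages, so their tests against the stages that did not reach it are descriptions. The counts of members here and in the next comparisons are also descriptions and no support for a direction.

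Between D75 and D20, 2 members fell (CL6698.Contig5, at least 8.88-fold, adjusted p = 0.000762, and CL16777.Contig2) and 2 rose (CL1839.Contig1 and Contig2), where 25.2% of all tested unigenes were called (14.5% lower, 10.7% higher). DT against D20 gave 0 calls of 8 by edgeR, DESeq2 and limma (0.328% of all called), with 2 members at an unadjusted p below 0.05 in edgeR. These were CL6698.Contig4 (log2 change 4.79, adjusted p = 0.207) and CL16777.Contig2, with 16 fragments against 1 (ratio 18.3, exact 95% counting interval 2.84 to 766.8, adjusted p = 0.236). Both passed without D75 replicate 1 (adjusted p = 0.0356 and 0.0351) or 2 (0.0325 and 0.0326), in ranges of 0.00222 to 0.975 and 0.0326 to 0.69.

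On rewatering, R against DT, 6 of the 8 members were called higher and 0 lower, with 15.3% of all tested unigenes called (9.30% higher, 5.96% lower). The 6 were the 4 CL6698 contigs, CL16777.Contig2 and CL1839.Contig3. CL1839.Contig2 had a log2 change of -2.27 that narrowly missed a call by edgeR (adjusted p = 0.0517), and DESeq2 called it lower (0.0217). R against F gave 0 calls by edgeR, DESeq2 and limma, where 0.0387% of all were called, and 1 member, CL1839.Contig2, had an unadjusted p below 0.05. Under a stricter threshold (a 2-fold or larger change, adjusted p no higher than 0.001), 4 members passed at D20 against F (6.20% of all), 1 at DT against F (2.76%), 3 at D20 against D75 (2.67%) and 1 at R against DT (0.969%). At D75 against F (0.00352% of all) and in R against F and DT against D20 (0% of all) 0 members passed it, with 4, 1 and 2 at an unadjusted p below 0.05. Levels in all 4 D20 and DT libraries were below all 4 F and R libraries in 6 of the 8 members, as in 22.2% of all tested unigenes, and above them in 1, as in 17.7%.

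**Figure D3:**
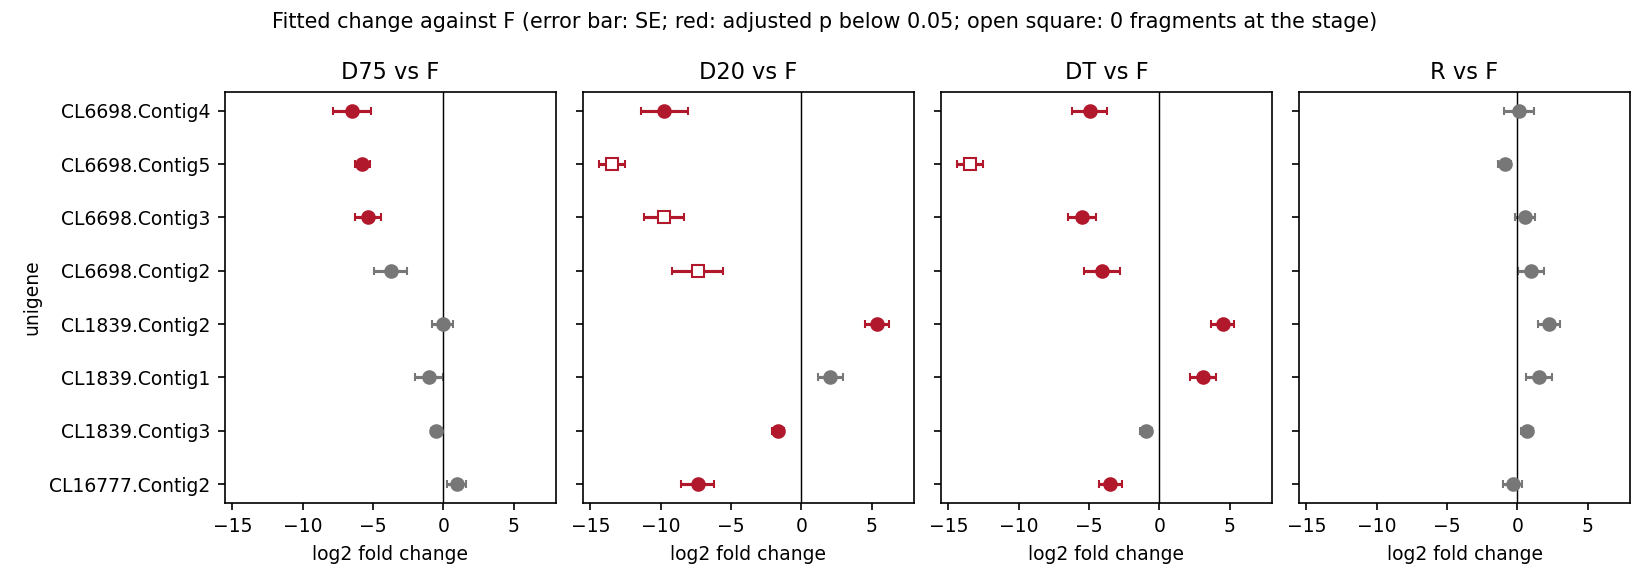
Fitted log2 fold change against F (horizontal axis) of the 8 members (vertical axis) at D75, D20, DT and R, with SE bars; red marks an adjusted p below 0.05 and open squares a stage with 0 fragments, whose fitted position is no bound. CL6698.Contig5 lies at -5.75 at D75 and CL1839.Contig2 at 5.40 at D20, and 0 members are red at R.

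Summed over the 8 members, polyphenol oxidase transcripts were highest in F and R, with the lowest mean at D75 and intermediate means in dry leaves. The sum was 152.3 and 212.1 scaled FPKM in F, 23.7 and 16.0 in D75, 67.8 and 32.9 in D20, 49.3 and 23.0 in DT, and 252.6 and 90.1 in R. The libraries of D75 overlapped with those of DT, and those of D20 with DT, while every F and R library lay above every dehydrated library. CL6698 held 88.7% and 94.6% of the sum in F and 89.5% and 79.5% in R, against 0.0744% and 0.471% at D20. CL1839 held 99.9% and 99.5% at D20 and 98.9% and 70.8% at DT, where CL6698 held 27.1% of replicate 2. At D75 the libraries differed, with 77.0% in CL16777.Contig2 in replicate 1 and 57.5% in CL1839 in replicate 2. In FPKM as deposited the mean sum in F was 231.8, against 182.2 when rescaled, and F replicate 2 by itself was at 305.9, against 212.1. As deposited the D75 libraries (28.4 and 15.3) also overlapped with those of D20 (53.6 and 25.0). The separation of D75 from D20 thus depended on the scaling.

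**Figure D4:**
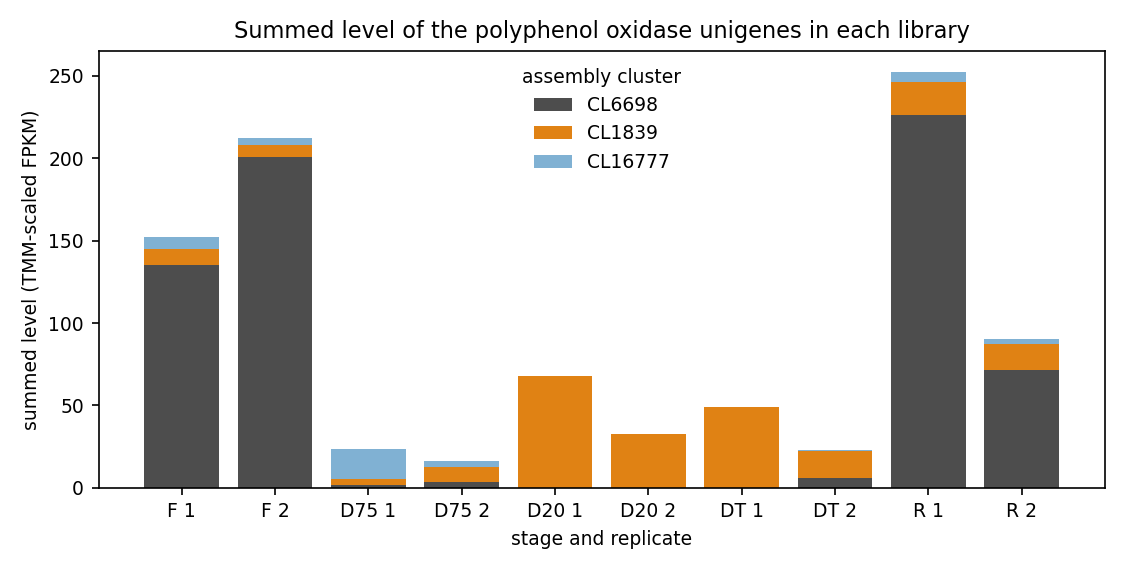
Summed level of the 8 members (vertical axis, TMM-scaled FPKM) in each library (horizontal axis, stage and replicate), stacked by assembly cluster. The bars reach 152.3 to 212.1 in F, nearly all of it CL6698, and 32.9 to 67.8 at D20, nearly all of it CL1839.

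The named unigenes outside the family whose log2(scaled FPKM + 1) correlated best with the 3 most abundant members over the 10 libraries were sought among 10670 candidates. For CL6698.Contig5 these were WALLS ARE THIN 1, known from Arabidopsis for secondary wall formation (Pearson r = 0.995), ASPARTIC PROTEASE IN GUARD CELL 1 (0.994), pollen-specific protein C13 (0.993), the wall-loosening Expansin-A1 (0.992) and Beta-glucosidase 13 (0.991). For CL6698.Contig4 they were the auxin response repressor IAA27 (0.982), organ-specific protein S2 (0.981), Xylem cysteine proteinase 2 (0.977), GDSL esterase/lipase CPRD49 (0.961) and chitinase-like protein 1 (0.960). For CL1839.Contig2 they were a cytosolic pyruvate kinase (0.988), the pollen allergen Bet v 1-M/N (0.985), Sec61 subunit gamma-2 of the protein translocation channel (0.985) and 2 contigs of heat stress transcription factor B-3 (0.984 and 0.981). These points share libraries and depth, and the order is a description.

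Heat stress transcription factor B-3 (CL6961.Contig1) had mean levels of 0.878 in F, 1.53 in D75, 31.6 in D20, 21.4 at DT and 4.34 in R, beside 1.08, 1.07, 46.1, 25.2 and 5.20 for CL1839.Contig2. Expansin-A1 had 43.6 in F, 1.65 in D75, 0 at D20 and DT and 20.5 in R, beside 68.4, 1.27, 0, 0 and 36.8 for CL6698.Contig5. Xylem cysteine proteinase 2, a vascular marker, had 17.6 in F, 0.3 in D75, 0.0413 in D20, 0.186 at DT and 23.2 in R.

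Genes that surround polyphenol oxidases in metabolism were counted by annotation. Of 107 tested unigenes that supply caffeoyl phenolics (phenylalanine ammonia-lyase to caffeoylshikimate esterase), 46 were lower and 25 higher at D20 than in F, with a median log2 change of -1.35. Over all tested unigenes 17.8% were lower and 14.0% higher in that comparison, with a median of -0.33. The summed level of that list was nevertheless 1506 to 1740 at D20 and 964 to 1106 in F. Caffeoylshikimate esterase, which releases caffeic acid, led it, with CL14363.Contig1 at a mean of 17.5 in F and 437 at D20 (log2 change 4.64, SE 0.56, adjusted p = 0.000132) and Contig3 at 8.24 and 296 (log2 change 5.16, SE 0.52, adjusted p = 5.4e-05).

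Among genes for the entry of tyrosine into phenylethanoids, 8 of 26 were lower and 4 higher at D20 than in F (17.8% and 14.0% of all tested), with a median log2 change of -2.94 against -0.33 over all. Tyrosine/DOPA decarboxylase 1 (CL7203.Contig2), which makes tyramine or dopamine, fell from a mean of 244.5 to 4.31 (log2 change -5.82, SE 1.39, adjusted p = 0.00745). Primary amine oxidase (Unigene9950), itself a copper enzyme, rose from 25.5 to 159.9 (log2 change 2.65, SE 0.45, adjusted p = 0.00106).

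Other copper oxidases were counted in the same way. Of 20 laccases, which oxidise phenols in the cell wall, 9 were lower and 4 higher at D20 than in F (17.8% and 14.0% of all tested), with a median log2 change of -4.59 against -0.33 over all, yet their sum was 48.7 to 57.5 in F and 216.3 to 274.0 at D20. A Laccase-14 unigene (CL13091.Contig3) rose from a mean of 1.53 to 178.7 (log2 change 6.84, SE 1.04, adjusted p = 0.000522) and another (CL10234.Contig2) from 10.3 to 51.3 (log2 change 2.32, SE 0.81, adjusted p = 0.0464). The D20 libraries of both stood far apart (SD 79.3 and 42.4, n = 2). From F to DT the edgeR test did not call CL10234.Contig2 (adjusted p = 0.0695). Of 18 ascorbate and multicopper oxidases 9 were lower and 0 higher (17.8% and 14.0% of all tested), with a median log2 change of -3.96, among them CL12728.Contig2, from 21.7 to 0.187 (log2 change -6.83, SE 0.56, adjusted p = 2.69e-05), and CL2563.Contig5, from 25.9 to 5.37 (log2 change -2.27, SE 0.39, adjusted p = 0.00118). Both are named as L-ascorbate oxidase homologues.

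Copper reaches the thylakoid lumen through copper ATPases, and plastocyanin, the electron carrier there, is another main user of copper. A list of 62 tested unigenes was drawn up for plastocyanin and for copper transporters, ATPases and chaperones, whether or not they serve the lumen. Of these, 27 were lower and 8 higher at D20 than in F (17.8% and 14.0% of all tested). Their median log2 change was -1.04 against -0.33 over all. Plastocyanin (CL4738.Contig3) fell from a mean of 561.9 to 12.3 (log2 change -5.51, SE 0.60, adjusted p = 8.19e-05), and Copper transporter 2 (CL2575.Contig1) rose from F to D75, 50.5 to 371.3 (log2 change 2.88, SE 0.46, adjusted p = 0.0154), and was at 38.4 at D20. Of 46 unigenes for protein import into the lumen 11 were lower and 7 higher, near the 17.8% and 14.0% of all tested, with a median log2 change of -0.52. TATA (Unigene19320), of the translocase that carries folded proteins into the lumen, fell from 156.0 to 52.9 (log2 change -1.56, SE 0.46, adjusted p = 0.0227), and TATB (CL1961.Contig5) was at 10.5 and 6.43 (adjusted p = 0.161).

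On rewatering, R against DT, 9.30% of all tested unigenes rose and 5.96% fell. Of 20 laccases 8 rose and 1 fell, of 18 ascorbate and multicopper oxidases 7 rose and 0 fell, of 107 unigenes of caffeoyl supply 31 rose and 15 fell, and of 62 of copper delivery 19 rose and 2 fell. Of 26 unigenes of tyrosine entry 4 rose and 1 fell, and of 46 of lumen import 0 rose and 1 fell. No Swiss-Prot description read aureusidin synthase, so that list held 0 unigenes.

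**Figure D5:**
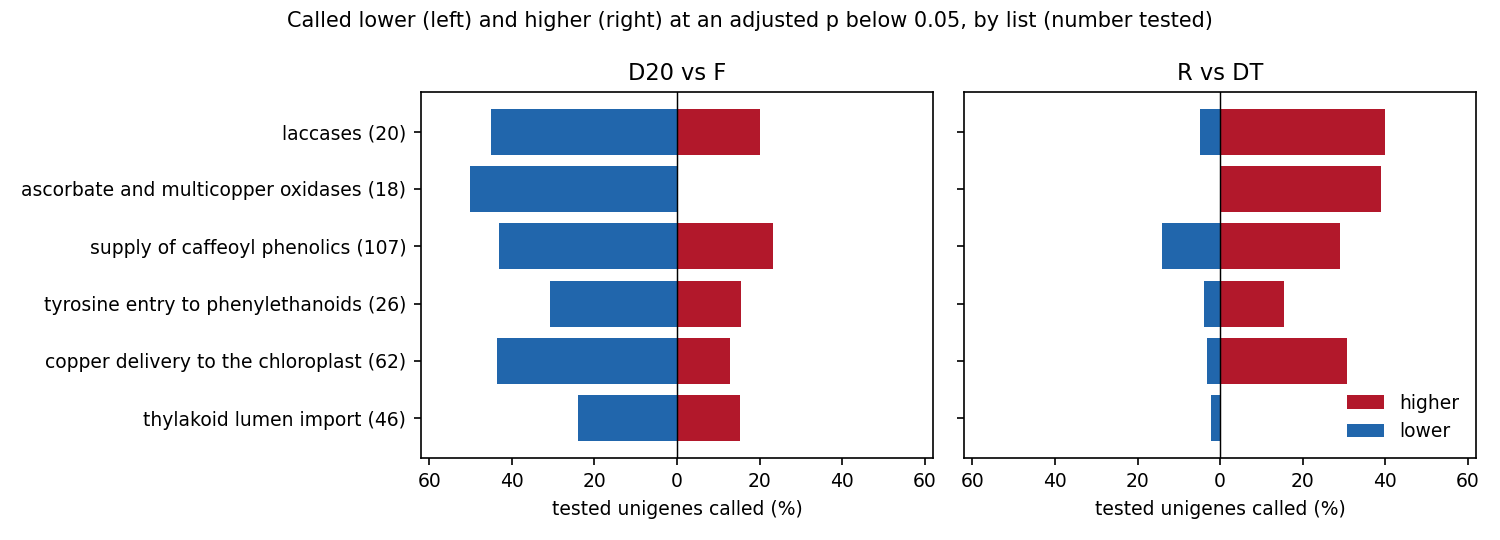
Share of tested unigenes (horizontal axis, %) called lower (blue, left) and higher (red, right) in 6 lists of genes around polyphenol oxidases (vertical axis, number tested in brackets), for D20 against F and R against DT. At D20, 9 of 20 laccases and 46 of 107 unigenes of caffeoyl supply were lower, against 17.8% of all tested unigenes.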

How the data were processed

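The deposited table gave, for 142473 unigenes and 10 libraries, whole fragment counts, FPKM, unigene length and best database hits with their alignment scores. For the counts, the authors used SeqPrep and Sickle to trim reads, Trinity for an assembly without a genome, and RSEM for abundance; the aligner and the versions are not given in the sources used here. The deposited FPKM were counts per length and library total, since all 1424730 values came out equal on recomputing (tolerance 0.1% plus 0.001). The scores and lengths are as the authors deposited them. 6 lines of the table were empty and are not analysed here.

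Counts were tested with edgeR 4.0.16 (R 4.3.3; TMM scaling, glmQLFit, glmQLFTest) all 10 libraries sharing a fit with a coefficient for each stage, and p-values were adjusted over the 85267 unigenes that reached FPKM 1 in 2 libraries. Calls used an adjusted p below 0.05. Standard errors were obtained by dividing the log2 change by the square root of its F statistic. A count of 0 was taken as up to 3 fragments per library, and counting intervals are exact at 95%. Alternatives were median-of-ratios scaling, no FPKM filter, DESeq2 1.42.0, limma 3.58.1 on log2(FPKM + 0.1), sums per cluster, a fit of only the 4 libraries compared, a replicate block, a stricter threshold and each library left out. The 16 alternatives counted for a member leave out the sums per cluster and the stricter threshold. The code was tested on simulated data. Members were named where called or at a mean FPKM of at least 5; each pathway list gave its 2 members of highest mean FPKM, and each of the 3 most abundant members its 5 best-correlated unigenes of mean FPKM at least 5. The members and lists were chosen with earlier results of these data known.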

Additional observations from a re-analysis of the deposited data

Results flagged for a closer look

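In 4 members the change against F differed between D20 and D75, as tested by edgeR in the comparison of D20 with D75. The change at D20 less that at D75 was 5.45 on the log2 scale for CL1839.Contig2 and 3.10 for CL1839.Contig1, whose call was lost without D75 replicate 1 (adjusted p = 0.0711) or D20 replicate 1 (0.207), with limma (0.104) and in a fit of the 4 libraries compared (0.112, range over its alternatives 0.0023 to 0.207). Without D75 replicate 1 the first value was 4.61 and without D75 replicate 2 it was 7.11. It was -8.34 for CL16777.Contig2, with 1 fragment left at D20, and -7.71 for CL6698.Contig5, with 0 fragments at D20; both fitted values depend on the prior count and are no bounds. D75 and D20 share a read length. CL1839.Contig1 entered the test through libraries of D20, DT and R alone, so its value is a description. CL16777.Contig2 and CL6698.Contig5 entered it through libraries of F, D75 and R alone, so theirs are also descriptions.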

How the results depend on the processing

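No called change reversed. Called members numbered 3 in D75 against F, 7 in D20 against F, 7 in DT against F, 0 in R against F, 4 in D20 against D75, 0 in DT against D20 and 6 in R against DT. Leaving out each library in turn gave 1 to 4, 5 to 8, 4 to 8, 0 to 1, 3 to 5, 0 to 2 and 2 to 7. The stricter threshold gave 0 in D75 against F, where 4 had an unadjusted p below 0.05 in edgeR and DESeq2 called 3, 4 in D20 against F, 1 in DT against F and 1 in R against DT. A fit of the 4 libraries compared gave 0 in D75 against F and 1 in R against F. Without the FPKM filter 1 was called in R against F and 2 in DT against D20. Of 3 cluster sums, 1 was called in D75 against F, 3 in D20 against F, 3 in DT against F and 2 in R against DT. The summed level in F was 231.8 in FPKM as deposited. Over all tested unigenes, same-numbered libraries deviated from their stage means with correlations of -0.176 to 0.0914. The numbers thus showed no common pairing, but a pairing that acts on fewer unigenes is not excluded. A replicate block gave 3, 7, 7, 0, 4, 0 and 6 calls. Median-of-ratios scaling moved the median log2 change of all tested unigenes from -0.22 to -0.32 in DT against F. Depth limits members such as CL6698.Contig2, with 9 and 22 fragments in F.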

Other observations

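The ratio of the levels of CL6698.Contig4 to CL6698.Contig5 was 0.732 and 2.14 in the F libraries, 0.448 and 1.07 at D75, and 3.32 and 1.71 in R, so the more abundant contig differed between libraries of the same stage in F. In DT replicate 2 there were 104 fragments of CL6698.Contig4 and 0 of CL6698.Contig5. Across the 10 libraries the log2(scaled FPKM + 1) of CL1839.Contig2 and CL16777.Contig2 had a Pearson r of -0.891, and that of CL6698.Contig4 and CL6698.Contig5 had 0.941, as descriptions of libraries that group by stage.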
